A study of Homo sapiens with 10 samples.

Results

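The TGF-beta pathway genes described here are 10 genes of MRC5 cells, a human fetal lung fibroblast line: the ligands TGFB1 and TGFB2, the latent TGF-beta binding proteins LTBP2 and LTBP3, the receptors TGFBR1 and TGFBR2, the transducer SMAD3, the corepressors SKI and SKIL, and the feedback inhibitor PMEPA1. They were chosen by name, and each matched 1 Ensembl gene among the 14054 of the count table. RNA was read in 10 libraries. In 5 of them (stretch 2, 4, 6, 8 and 10) the fibroblasts had received medium conditioned by mechanically stretched A549 cells, here called stretch medium, and in 5 (static 1, 3, 5, 7 and 9) medium conditioned by A549 cells that were not stretched, here called static medium. A549 cells derive from a human lung tumour and keep some traits of alveolar epithelium, so in both groups the fibroblasts had met products of a tumour line, and no library of fibroblasts in fresh medium was used here. The sample descriptions give 24 hours of conditioning or exposure and the series design gives 6 hours, so the time is not settled. The comparison asks how secreted products of stretched epithelial cells act on fibroblasts.

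TGF-beta is secreted in a latent form that binding proteins tether to the extracellular matrix, from which integrins and proteases release it. The free ligand joins the type II receptor TGFBR2, which phosphorylates the type I receptor TGFBR1, which in turn phosphorylates SMAD2 and SMAD3, and these enter the nucleus with SMAD4. SKI and SKIL hold SMAD complexes in a repressed state, while SKIL and PMEPA1 are also induced by the pathway and limit it. In lung fibroblasts the pathway is known as a main driver of the myofibroblast state and of matrix production.

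Total counts ran from 4231653 to 7724512 in stretch libraries and from 4610480 to 8455073 in static libraries. All 15 fibroblast markers on the list were in the table, with means over the 10 libraries from 27.1 CPM (counts-per-million units, scaled by TMM) for TWIST1 to 4199 CPM for VIM. Of 25 A549 and epithelial markers, 13 were in the table and the other 12 were not analysed here. Their summed level was 49.5 to 60.3 CPM in stretch libraries and 45.1 to 56.4 CPM in static libraries, the cadherin CDH1 averaged 0.160 CPM and the epithelial adhesion molecule EPCAM 2.80 CPM, and their part in the results was not tested. The highest of them, the keratin KRT18, had a log2 fold change of 0.40 with an unadjusted p of 0.0384 and an adjusted p of 0.276 in edgeR. It was 1 of 8 such markers tested, and the only one with an unadjusted p under 0.05. That is 12.5%, against 16.4% of all genes. Of the variance between libraries, 24.8% lay on a first principal component with stretch 6 at one end (a score of 30.9) and static 7 at the other (-39.1). Static libraries scored from -39.1 to -0.897 and stretch libraries from 8.74 to 30.9, except stretch 4 at -7.07. The component thus largely followed the groups.

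The windows upstream of the receptor genes and of the pathway-induced feedback genes are shown because the receptors had the largest fitted differences among the members and the feedback genes are textbook SMAD targets. Each is the 150 bases from 250 to 101 bases before the most upstream RefSeq start of the gene, 5′ to 3′ on the gene's strand, from RefSeq on GRCh38.p14. Capitals mark AGAC or its reverse complement GTCT, the core letters that SMAD3 and SMAD4 bind, and the GC box GGGCGG or its reverse complement CCGCCC, which SP1 binds. The positions are chr3:30606106-30606255 on the plus strand for TGFBR2, chr9:99103397-99103546 on the plus strand for TGFBR1, chr3:170357465-170357614 on the plus strand for SKIL and chr20:57711573-57711722 on the minus strand for PMEPA1.
TGFBR2: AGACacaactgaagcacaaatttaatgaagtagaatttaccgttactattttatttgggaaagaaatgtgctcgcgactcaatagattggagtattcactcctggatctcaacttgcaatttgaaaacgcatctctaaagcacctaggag
TGFBR1: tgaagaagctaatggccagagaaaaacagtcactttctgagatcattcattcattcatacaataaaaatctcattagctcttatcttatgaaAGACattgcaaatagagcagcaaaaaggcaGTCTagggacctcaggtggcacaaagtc
SKIL: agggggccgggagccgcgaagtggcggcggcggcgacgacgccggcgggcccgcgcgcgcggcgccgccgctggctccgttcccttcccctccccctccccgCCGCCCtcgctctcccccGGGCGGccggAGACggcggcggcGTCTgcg
PMEPA1: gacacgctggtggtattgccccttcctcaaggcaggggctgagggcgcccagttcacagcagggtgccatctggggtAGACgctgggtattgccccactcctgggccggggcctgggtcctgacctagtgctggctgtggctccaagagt

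The TGFBR2 window held 1 match to AGAC on either strand, that of TGFBR1 2, that of SKIL 2 and that of PMEPA1 1. Of the 35116 windows of the same length in the RefSeq table, 61.8% held such a match. The longer form CAGAC, which contains AGAC, was present in the SKIL window and in 26.1% of all, and the palindrome GTCTAGAC was in none of the 4 windows and in 0.120% of all. The SKIL window held 2 GC boxes and the other 3 held 0, against 25.8% of all windows with at least 1. The receptor windows were low in G and C, at 37.3% for TGFBR2 and 38.0% for TGFBR1, against a median of 56.0% over the table, while those of SKIL and PMEPA1 were at 85.3% and 65.3%. Promoter sequence was found for 9 of the 10 members, the exception being SKI. Only the most upstream start was used, while RefSeq gives 2 starts for TGFBR2, 8 for TGFBR1, 4 for PMEPA1 and 1 for SKIL. Windows at the other starts are not shown and may differ in motifs and in G and C. The TGFBR1 window ends at 99103546, upstream of the gene's bounds, which begin at 99104038. The marked letters describe the sequence and do not show binding.

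Across the 10 members no difference passed the threshold. The receptor TGFBR2 lay lower in every stretch library than in any static one, the receptor TGFBR1 had a lower mean with stretch medium, the ligands, binding proteins, SMAD3 and PMEPA1 lay slightly above 0 and the corepressors slightly below. In edgeR's quasi-likelihood test with Benjamini-Hochberg adjustment over 10968 genes, 0 of the 10 members passed an adjusted p of 0.05, as did 0% of all genes tested. DESeq2 called 0 members and 2.84% of the genes to which it gave an adjusted p, and limma-voom called 0 members. At an unadjusted p under 0.05 there was 1 member, TGFBR2, that is 10% of the members, against 16.4% of all genes, so the members held no more such differences than the table as a whole. It lay lower with stretch medium, as did 8.37% of all genes at that limit, while no member was among the 8.08% that lay higher. At an adjusted p under 0.1 there were 0 members and 0.556% of all genes. Fitted log2 fold changes, stretch minus static, ran from -0.48 to 0.21 with a median of 0.083, against a median of 0.00035 over all genes, with 6 members above 0 and 4 below. All 10 members passed the filter on low counts. In RNA from whole cultures, a change in the make-up of the cells and a change in RNA per cell cannot be told apart.

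**Figure D1:**
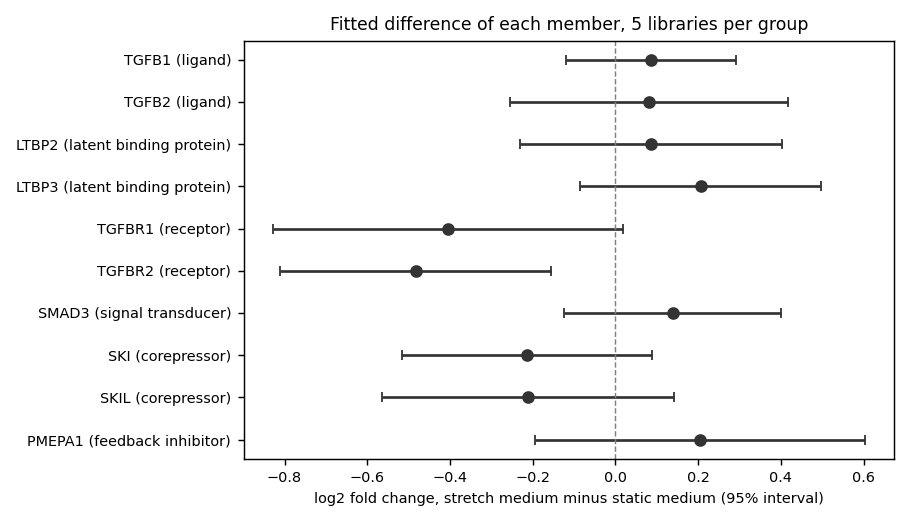
Fitted log2 fold change, stretch medium minus static medium, of each member (points, x axis) with its 95% interval (bars), ordered by role down the page, from 5 libraries per group. The interval of TGFBR2, from -0.81 to -0.16, is the one that lies wholly on one side of 0.

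TGFBR2 (ENSG00000163513, chromosome 3, 30606502 to 30694142 on GRCh38) encodes the ligand-binding type II receptor kinase. It was at 19.0, 20.4, 13.6, 21.1 and 17.3 CPM in stretch 2, 4, 6, 8 and 10, against 24.4, 23.3, 23.4, 32.8 and 23.5 CPM in static 1, 3, 5, 7 and 9. Every stretch library lay below every static library, and 4 of the static libraries lay close together while static 7 stood above them. Groups failed to overlap in this way in 3.72% of all genes, and in 1.98% with the stretch libraries lower. The means were 18.3 ± 2.98 CPM with stretch medium and 25.5 ± 4.09 CPM with static medium (SD, n = 5 each). The log2 fold change was -0.48 ± 0.16 (SE), with a 95% interval of -0.81 to -0.16, an unadjusted p of 0.00645 and an adjusted p of 0.154 in edgeR. By unadjusted p it ranked 458 of the 10968 genes, 4.17% of which had a smaller one. DESeq2 gave it an adjusted p of 0.0794. Counts behind these values were 84 to 251 per library. If reads are taken as independent, 84 counts carry a counting error of 10.9%. That is below the 16.3% and 16.1% coefficients of variation of the stretch and static groups. Counts are of amplified reads, so the sampling error may be larger.

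The size of the TGFBR2 difference rested in part on the libraries with its most extreme values. Its highest value was in static 7 and its lowest in stretch 6, the same pair that bounds the first principal component. Leaving out these values narrows the difference in any case, so the settings that follow cannot tie it to that component. Without static 7 the log2 fold change was -0.37 (adjusted p = 0.325 in edgeR), without stretch 6 it was -0.39 (adjusted p = 0.294), and without both, a setting added after seeing the data, it was -0.28 ± 0.14 (SE) with an adjusted p of 0.468. It stayed below 0 in each setting. The part that the component plays in the result was not tested.

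TGFBR1 (ENSG00000106799, chromosome 9, 99104038 to 99154192), the type I receptor kinase that TGFBR2 activates, was at 20.4, 38.3, 16.8, 27.9 and 22.1 CPM in stretch 2, 4, 6, 8 and 10, and at 38.9, 36.3, 31.5, 36.0 and 23.2 CPM in static 1, 3, 5, 7 and 9. The groups overlapped, because stretch 4 lay with the high static libraries and static 9 with the low stretch libraries. The means were 25.1 ± 8.41 and 33.2 ± 6.18 CPM with stretch and static medium (SD, n = 5 each), and the log2 fold change was -0.40 (interval -0.83 to 0.019, adjusted p = 0.325 in edgeR). Without stretch 4 the log2 fold change was -0.60 and the adjusted p 0.101, and without stretch 6 they were -0.28 and 0.547. The ratio of TGFBR1 to TGFBR2 within a library, which does not depend on scaling, averaged 0.41 ± 0.30 on the log2 scale with stretch medium and 0.37 ± 0.31 with static medium (SD, n = 5 each), so the ratio of the receptors lay at about the same level in both groups.

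**Figure D2:**
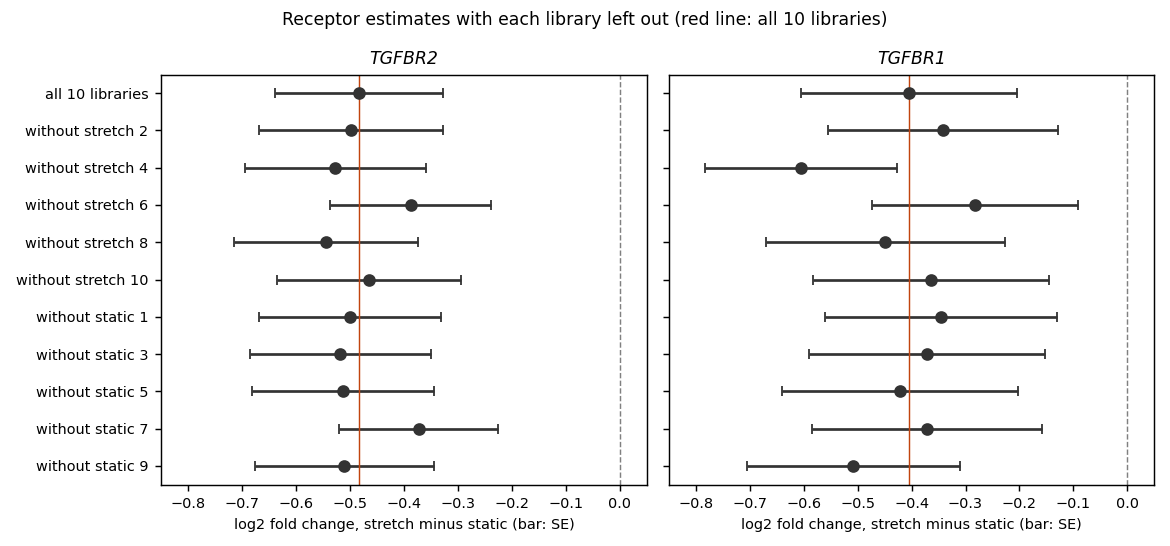
Log2 fold change of TGFBR2 and TGFBR1, stretch minus static (x axis), with all 10 libraries and with each library left out (rows; points are estimates, bars are standard errors). Every estimate lies below 0. That of TGFBR2 is nearest to 0 without static 7 (-0.37), and that of TGFBR1 ranges from -0.60 without stretch 4 to -0.28 without stretch 6.

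Among the ligands, TGFB1 (ENSG00000105329, chromosome 19, 41301587 to 41353911), the main form in fibrosis, was at 477, 439, 439, 424 and 494 CPM in stretch 2, 4, 6, 8 and 10, and at 450, 487, 397, 418 and 388 CPM in static 1, 3, 5, 7 and 9. The ranges overlapped over most of their width. Its log2 fold change of 0.086 had the narrowest interval of the members, -0.12 to 0.29, that is a fold between 0.920 and 1.22 (adjusted p = 0.692 in edgeR), and with 1 library left out it ran from 0.053 without static 9 to 0.13 without static 3. The gene's bounds overlap HNRNPUL1 and CCDC97 on the other strand, and the use of strand in counting is not given in the sources used here. TGFB2 (ENSG00000092969, chromosome 1, 218346235 to 218444619), whose product needs the co-receptor betaglycan for tight receptor binding, was at 23.5, 26.0, 21.7, 20.4 and 15.3 CPM in stretch 2, 4, 6, 8 and 10, and at 20.7, 16.7, 24.8, 18.8 and 20.3 CPM in static 1, 3, 5, 7 and 9. Both its highest and its lowest value were in stretch libraries, stretch 4 and stretch 10. The log2 fold change was 0.081 (interval -0.25 to 0.42, adjusted p = 0.838), and with 1 library left out it ran from 0.00086 without stretch 4 to 0.18 without stretch 10.

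The binding proteins were similar in how far libraries of a group spread. Coefficients of variation in stretch and static libraries were 12.8% and 19.3% for LTBP3, and 15.3% and 20.5% for LTBP2. LTBP3 (ENSG00000168056, chromosome 11, 65538805 to 65558930), which binds the latent ligand and helps its secretion, was at 173, 131, 168, 148 and 182 CPM in stretch 2, 4, 6, 8 and 10, and at 144, 163, 98.4, 161 and 128 CPM in static 1, 3, 5, 7 and 9. Static 5 was the lowest library, and stretch 4 and stretch 8 lay within the range of the static ones. Its log2 fold change of 0.21 was the highest of the members, with an interval of -0.085 to 0.50 (adjusted p = 0.475 in edgeR), and was 0.10 without static 5. LTBP2 (ENSG00000119681, chromosome 14, 74498170 to 74612378), a relative that binds fibrillin and not the latent ligand, was at 55.0, 39.5, 37.7, 45.1 and 43.6 CPM in stretch 2, 4, 6, 8 and 10, and at 38.2, 50.2, 50.6, 32.0 and 36.2 CPM in static 1, 3, 5, 7 and 9. The groups overlapped, with stretch 2 highest and static 7 lowest. Its log2 fold change was 0.087 (interval -0.23 to 0.40, adjusted p = 0.814), and ran from -0.0012 without stretch 2 to 0.17 without static 5.

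SMAD3 (ENSG00000166949, chromosome 15, 67063763 to 67195195), the receptor-activated SMAD that binds DNA, was at 376, 260.4, 404, 326 and 362 CPM in stretch 2, 4, 6, 8 and 10, and at 309, 348, 278, 278 and 359 CPM in static 1, 3, 5, 7 and 9. Stretch 6 was the highest library and stretch 4 the lowest, so the static values lay inside the stretch range. The log2 fold change was 0.14 (interval -0.12 to 0.40, adjusted p = 0.609 in edgeR), and ran from 0.077 without stretch 6 to 0.22 without stretch 4. The library order of SMAD3 ran opposite to that of TGFBR1 at its ends: stretch 6 was highest for SMAD3 and lowest for TGFBR1, while stretch 4 was lowest for SMAD3 and second highest for TGFBR1.

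SKI (ENSG00000157933, chromosome 1, 2228695 to 2310119), which recruits histone deacetylases to SMAD complexes, was at 48.4, 62.9, 38.1, 56.6 and 46.4 CPM in stretch 2, 4, 6, 8 and 10, and at 54.7, 60.7, 69.5, 60.0 and 47.6 CPM in static 1, 3, 5, 7 and 9. As with both receptors, stretch 6 was the lowest library. The log2 fold change was -0.21 (interval -0.52 to 0.087, adjusted p = 0.473 in edgeR), and was -0.12 without stretch 6 and -0.31 without stretch 4. SKIL (ENSG00000136603, chromosome 3, 170357678 to 170396835), its relative also known as SnoN, was at 135, 176, 189, 142 and 226 CPM in stretch 2, 4, 6, 8 and 10, and at 255, 240.0, 144, 202 and 164 CPM in static 1, 3, 5, 7 and 9. SKIL was highest in static 1 and 3, and static 5, 7 and 9 lay within the range of the stretch libraries. Its log2 fold change was also -0.21 (interval -0.56 to 0.14, adjusted p = 0.552), and was -0.11 without static 1 and -0.33 without stretch 10.

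PMEPA1 (ENSG00000124225, chromosome 20, 57648392 to 57711536), a membrane protein that keeps SMAD2 and SMAD3 from the receptor, was at 20.6, 20.0, 16.0, 15.6 and 17.7 CPM in stretch 2, 4, 6, 8 and 10, and at 19.1, 15.4, 17.7, 8.61 and 17.4 CPM in static 1, 3, 5, 7 and 9. Apart from static 7, the lowest, the libraries of both groups shared one range. The log2 fold change was 0.20 (interval -0.20 to 0.60, adjusted p = 0.619 in edgeR), and was 0.045 without static 7. SKIL and PMEPA1, both induced by the pathway, thus lay on different sides of 0 and neither interval excluded 0. PMEPA1 is overlapped on the other strand by the long noncoding RNA gene NKILA.

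**Figure D3:**
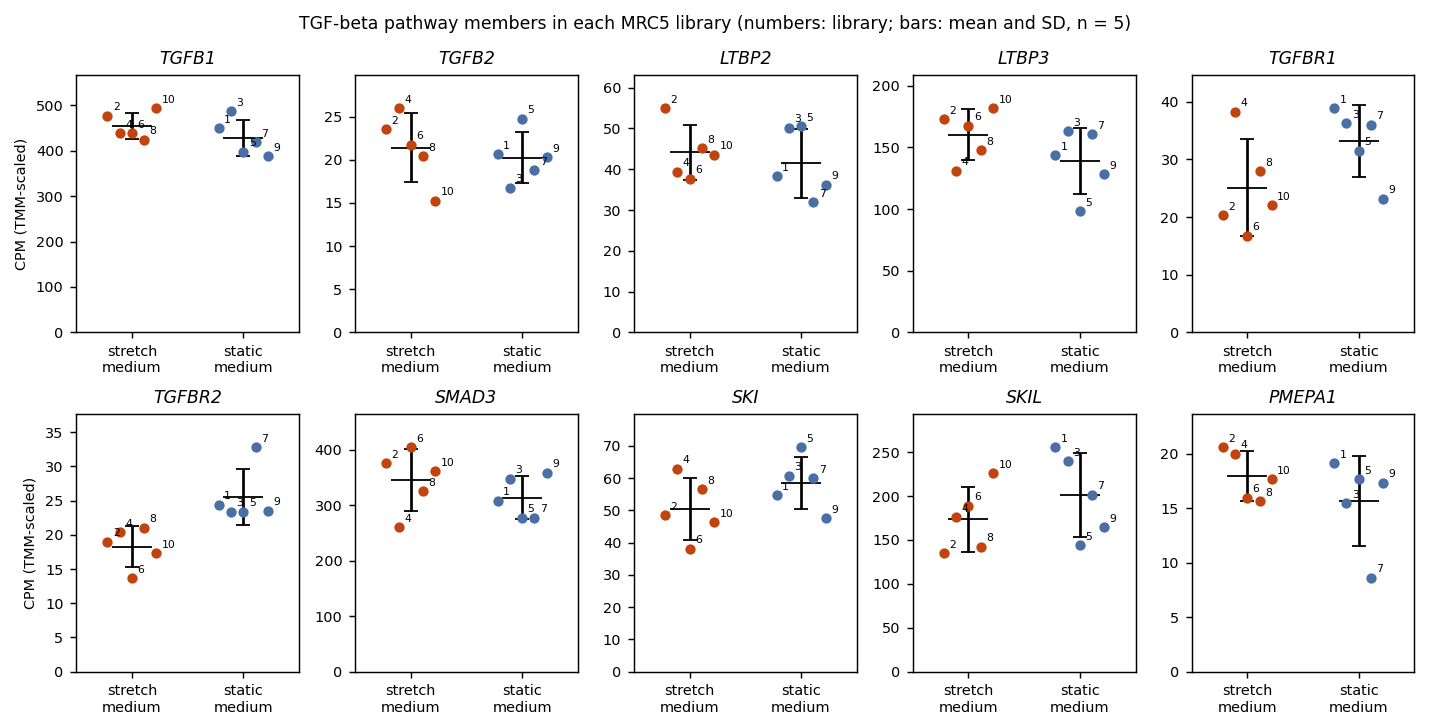
TMM-scaled CPM (y axis, from 0) of each member in the 5 stretch libraries (left in each panel) and the 5 static libraries (right), numbered by library, with the mean and SD. The groups are apart in the TGFBR2 panel, where stretch libraries run from 13.6 to 21.1 CPM and static libraries from 23.3 to 32.8 CPM, and overlap in the other 9.

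Ratios between the paired members within a library also lay close together in the groups. SKIL to SKI averaged 1.78 ± 0.48 with stretch medium and 1.76 ± 0.44 with static medium on the log2 scale, TGFB2 to TGFB1 -4.43 ± 0.35 and -4.41 ± 0.31, and LTBP2 to LTBP3 -1.86 ± 0.23 and -1.74 ± 0.50 (SD, n = 5 each). All 4 ratios overlapped between the groups. Each gene is read through its own amplicon, so these ratios compare libraries and do not give the relative amount of the genes.

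The genes whose log2 CPM followed TGFBR2 most closely over the 10 libraries were PMS2 (Pearson r = 0.967), SLK (r = 0.965) and MPHOSPH6 (r = 0.963), given as a description of libraries that share the same groups and the same end libraries. PMS2, a DNA mismatch repair gene with near-identical copies that make its count uncertain, was at 7.22 ± 1.21 CPM with stretch medium and 11.5 ± 2.80 CPM with static medium. SLK, a STE20-like kinase, was at 100.3 ± 18.7 and 147 ± 39.8 CPM, and MPHOSPH6, a protein of the RNA exosome, at means of 54.9 and 73.3 CPM, with stretch and static medium (SD, n = 5 each). The adjusted p of these 3 genes in edgeR was 0.129, 0.140 and 0.154. Each was lowest in stretch 6 and highest in static 7, as was TGFBR2.

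Other genes of the pathway were taken from 5 lists by role, with 104 names, of which 93 genes besides the members were tested, each counted once where lists share it. Among the others, LTBP1, NRROS, ITGB6, SMAD6, LDLRAD4 and FOXH1 were not analysed here, and MECOM, JUN, RUNX1 and COMP did not pass the filter on low counts. None passed the threshold over all genes in edgeR or limma-voom, and DESeq2 called 3 (KLF10, SPHK1 and EP300) of the 89 to which it gave an adjusted p, that is 3.37%, near the 2.84% of all genes. At an unadjusted p under 0.05 there were 23, or 24.7%, against 16.4% of all genes. Of these, 15 were higher and 8 lower with stretch medium, and the median log2 fold change of the 93 was -0.011. Groups did not overlap for 4 of the 93, 2 higher and 2 lower, that is 4.30%, near the 3.72% of all genes. The lists were chosen with earlier results of these data known. Their shares, here and for each list below, are therefore descriptions and not tests of enrichment.

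Among 15 genes of ligand storage and activation, 7 had an unadjusted p under 0.05 (46.7%, against 16.4% of all genes), 5 higher and 2 lower, with a list median of 0.066. FURIN, the convertase that cleaves the TGF-beta precursor, was at 96.0 ± 12.5 CPM with stretch medium and 73.2 ± 12.3 CPM with static medium (log2 fold change 0.39, adjusted p = 0.167 in edgeR). ITGB1, the integrin beta-1 chain, was at 86.2 ± 15.8 and 116 ± 20.3 CPM (-0.43, adjusted p = 0.167). The other 5 are named after their values were seen. Of these, THBS1, whose product thrombospondin-1 can activate the latent ligand, had a log2 fold change of 0.45, the integrin chain ITGB3 0.61, the membrane protease MMP14 0.23 and LRRC32, which tethers latent ligand to the cell surface, 0.83 at a mean of only 3.37 CPM with stretch medium and 1.80 CPM with static medium. ITGAV, the alpha chain of the integrins that release TGF-beta, was at -0.25. Its groups did not overlap, as in 1.98% of all genes with stretch libraries lower. The adjusted p of these 5 in edgeR ran from 0.208 for THBS1 to 0.266 for LRRC32. Integrin chains thus stood on both sides of 0. The third ligand gene, TGFB3, was at 3.35 ± 1.23 and 3.20 ± 0.48 CPM with stretch and static medium.

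Of 11 receptor-level genes, 2 had an unadjusted p under 0.05, that is 18.2%, near the 16.4% of all genes. NRP1, a neuropilin that binds TGF-beta, was higher, at 449 ± 71.2 CPM with stretch medium and 330.4 ± 59.3 CPM with static medium (log2 fold change 0.44, adjusted p = 0.149 in edgeR). CAV1, the caveolin through which receptors are internalised and degraded, was lower, at 9.43 ± 2.75 and 14.5 ± 3.10 CPM (-0.61, adjusted p = 0.176). The co-receptor TGFBR3, betaglycan, had a log2 fold change of 0.25 (interval -0.10 to 0.60), so it did not share the direction of TGFBR1 and TGFBR2, although the difference between them was not tested.

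Among 22 SMADs and their regulators, 1 gene had an unadjusted p under 0.05, that is 4.55%, against 16.4% of all genes. It was RNF111, the ubiquitin ligase Arkadia that sends SKI, SKIL and SMAD7 to degradation, at 59.7, 62.2, 72.5, 63.5 and 67.3 CPM in stretch 2, 4, 6, 8 and 10, against 56.3, 56.2, 48.9, 48.0 and 53.6 CPM in static 1, 3, 5, 7 and 9. Every stretch library lay above every static library, a pattern shared by 1.74% of all genes. Its log2 fold change was 0.31 ± 0.11 (SE) and its adjusted p 0.176 in edgeR. TRIM33, which limits SMAD4, was at -0.35 with an adjusted p of 0.326. The core transducers SMAD2 and SMAD4 were at -0.23 (interval -0.48 to 0.026) and 0.044 (-0.17 to 0.26), and the inhibitor SMAD7, a rapid target of the pathway, at 0.038 (-0.29 to 0.36), values chosen for their role after they were seen.

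Of 17 nuclear partners of SMADs, 3 had an unadjusted p under 0.05, that is 17.6%, near the 16.4% of all genes. EP300, the acetyltransferase that coactivates SMAD3, was at 51.0 ± 10.7 CPM with stretch medium and 33.8 ± 6.30 CPM with static medium, a log2 fold change of 0.59 ± 0.16 (SE) with an adjusted p of 0.117 in edgeR and 0.0242 in DESeq2. ATF3, a stress-induced factor that joins SMAD3 to repress genes, was at 3.75 ± 1.33 and 5.79 ± 1.22 CPM (-0.66, adjusted p = 0.217 in edgeR). E2F4, named after its value was seen, was at 0.35 with an adjusted p of 0.262.

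Of 29 widely used target genes, 10 had an unadjusted p under 0.05 (34.5%, against 16.4% of all genes), 6 higher and 4 lower, and the list median was -0.063. KLF10, an early TGF-beta-induced repressor, was at 33.7, 59.1, 37.3, 36.6 and 50.8 CPM in stretch 2, 4, 6, 8 and 10, against 61.3, 74.6, 77.0, 81.1 and 62.0 CPM in static 1, 3, 5, 7 and 9. SPHK1, the sphingosine kinase, went the other way, at 86.4, 90.3, 115, 98.3 and 93.6 CPM in stretch 2, 4, 6, 8 and 10, against 58.0, 73.2, 76.1, 39.7 and 65.9 CPM in static 1, 3, 5, 7 and 9. In both genes the groups did not overlap, as in 1.98% of all genes with stretch libraries lower and 1.74% with them higher. Their adjusted p was 0.0903 and 0.109 in edgeR and 0.00440 and 0.0125 in DESeq2. The contractile gene TAGLN was at 528 ± 186 CPM with stretch medium and 363 ± 65.4 CPM with static medium (0.54, adjusted p = 0.208 in edgeR), and the cell-cycle inhibitor CDKN2B at 22.3 ± 5.23 and 32.5 ± 11.4 CPM (-0.55, adjusted p = 0.256). The matrix gene TGFBI, a standard readout of the pathway, was at -0.094 with an interval of -0.31 to 0.12. The remaining genes with an unadjusted p under 0.05 were CCN2 (0.34), the smooth muscle actin gene ACTA2 (0.32), the matrix genes FN1 (0.30) and COL1A1 (0.22), JUNB (-0.24) and WNT5A (-0.32), with adjusted p from 0.146 for CCN2 to 0.289 for JUNB in edgeR. The genes of this list other than KLF10 and SPHK1 are named after their values were seen.

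**Figure D4:**
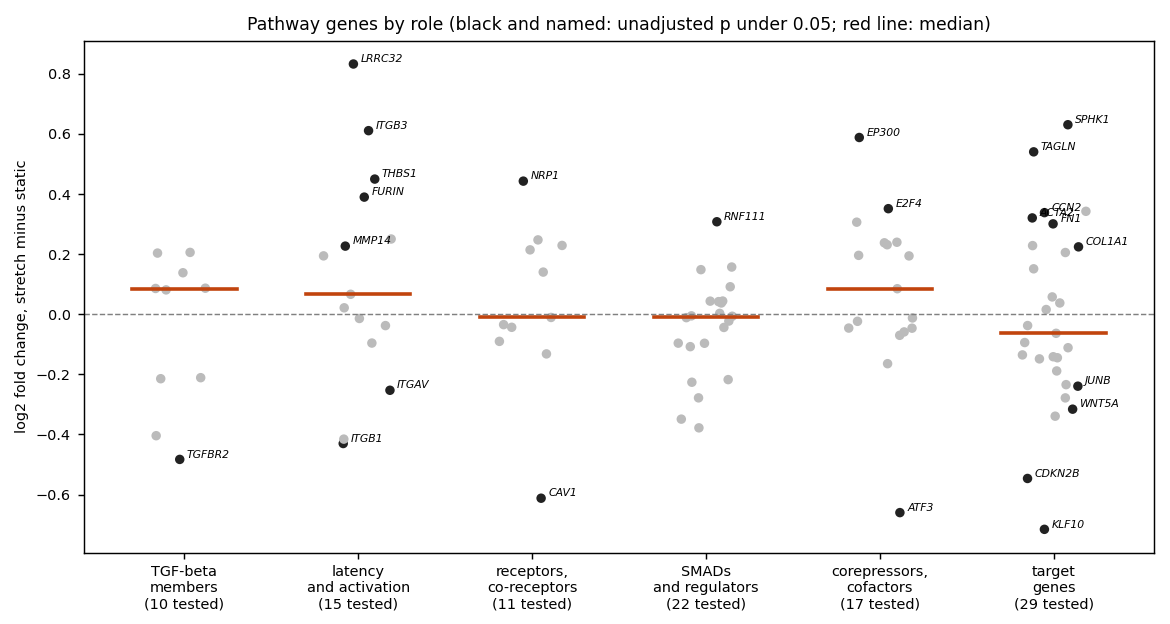
Log2 fold change, stretch minus static (y axis), of the 10 members and of the tested genes of the 5 pathway lists (columns). Black named points have an unadjusted p under 0.05, grey points do not, and red lines are medians, which run from -0.063 for target genes to 0.085 for corepressors and cofactors.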

How the data were processed

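RNA of 10 MRC5 libraries (5 per group) was made into libraries with an Ion AmpliSeq human transcriptome kit, a multiplex PCR of short targets, per the labels' protocols, which mention no molecular identifiers. Counts are therefore of amplified reads. The authors deposited counts as whole numbers, unscaled, 1 row for each Ensembl gene. The submitters' processing notes name fastp 0.20.1, Salmon 1.9 and GRCh38; for tool roles, annotation, strand use and rounding the sources used here give nothing. The table holds genes above 0 in at least 5 libraries. Columns were matched by the number in the sample titles.

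Genes were kept by filterByExpr (minimum count 10, minimum total 15; 10968 genes), scaled by TMM and tested with edgeR 4.0.16 (R 4.3.3) by the quasi-likelihood test, adjusted over all genes, threshold 0.05. Standard errors are the log2 fold change over the root of F. The test was checked on simulated data. Alternatives were other scalings and filters, DESeq2 1.42.0, limma-voom (limma 3.58.1), a threshold of 0.1 and each library left out. Named beyond the members were the 2 smallest p-values of each pathway list and the 3 genes most like the member with the smallest p. The members and lists were chosen with earlier results of these data known. Chi-square over degrees of freedom between libraries of a group was 5.75 to 23.0, and no libraries were merged as duplicates. Whether libraries came from separate cultures is not stated, and a p-value reflects only how far these samples spread, perhaps for technical reasons. Positions are from GENCODE 29, and the window of upstream sequence and the GC box motif were chosen after the tables were seen.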

Additional observations from a re-analysis of the deposited data

Results flagged for a closer look

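In 3 of 46 groups examined (23 genes in 2 groups each) a single library stood apart from the other 4 of its group. Its gap divided by the range was above Dixon's 95% limit, which chance passes in about 1 in 20 independent groups. Some of these genes were named for their p-values or their likeness to TGFBR2. That rate therefore cannot be applied to the 3. TGFBR2 was at 32.8 CPM in static 7, above 23.3 to 24.4 CPM in the other static libraries. SLK, named because it followed TGFBR2 and so not a separate case, was at 217 CPM in the same library. EP300 was at 44.8 CPM in static 3, above 30.2 to 33.4 CPM in the other static libraries and within the 42.8 to 69.3 CPM of stretch libraries.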

How the results depend on the processing

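No paired analysis was possible because the groups share no replicate number. No member was called in any setting. Over 413 values of the 23 named genes under the alternatives, 408 kept direction and side of the threshold. LTBP2 turned to -0.0012 without stretch 2 and reached 0.17 without static 5, and 4 passed the threshold: KLF10, SPHK1 and EP300 in DESeq2, and KLF10 without stretch 4 (adjusted p = 0.0340 in edgeR). TGFBR2 ranged from -0.54 to -0.28, with adjusted p from 0.0794 to 0.468. ITGB1, NRP1, RNF111 and SPHK1 also had their highest and lowest values in stretch 6 and static 7. Their log2 fold changes were -0.43, 0.44, 0.31 and 0.63 with all libraries. With both left out they were -0.21, 0.28, 0.24 and 0.43, a narrowing that leaving out extreme values brings in any case. Over the whole table the count of 0 called genes became 275 in DESeq2 (125 higher, 150 lower), 1 in limma-voom, 61 at a threshold of 0.1 and 2 without static 7 and stretch 6 together, a setting chosen after seeing the data. Leaving out 1 library gave 0 to 39, with 39 without stretch 4, 2 without stretch 6 and 1 without stretch 10. Among pathway list genes it became 3 in DESeq2 and 1 at a threshold of 0.1, with 0 to 1 when a library was left out. The causes were not tested. Depth limits the genes with few counts most: among the members, PMEPA1 had 66 to 131 counts per library and TGFB2 76 to 161. Other named genes reached lower counts, with 15 to 57 for ATF3, 22 to 142 for CAV1 and 32 to 125 for PMS2. A floor of 3 counts was 0.388 to 0.709 CPM in stretch and 0.355 to 0.651 CPM in static libraries and covers counting error only.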
